A study of Homo sapiens with 6 samples.

Results

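The comparison described here is the 6 h recovery of HT29-tsp53 cells after p53 had been active, set against the same cells while p53 was still active. It used 4 of the 6 arrays of the series, namely those titled p53 on then off and those titled p53 on, with 1 array of each group in experiment 1 and 1 in experiment 2. The arrays were chosen by title alone, and each recovery array was set against the p53 on array of its own experiment. HT29-tsp53 is an established human colorectal adenocarcinoma line, HT-29, that carries a murine V135A p53 transgene, a temperature-sensitive form of the protein. Every group carried the transgene. The p53 on cells had spent 16 h at the permissive 32 °C, and the recovery cells had spent the same 16 h at 32 °C and then 6 h back at the restrictive temperature. The control cells, p53 off, stayed at the restrictive temperature and are used below for side-by-side levels. The labels disagree on that temperature, which is 38 °C in titles and characteristics and 37 °C in the protocols. For the recovery samples 1 field names 32 °C as the last step, against the design text. Recovery changed p53 activity, temperature and time in culture together, so what belongs to each cannot be told apart. The labels do not say whether the line is 1 clone, and no cell line without the transgene is among the samples.

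p53 is a transcription factor that binds DNA and switches on genes for cell cycle arrest, DNA repair and cell death. Its target MDM2 is a ubiquitin ligase that destroys p53, which makes a feedback loop, and its target CDKN1A encodes p21, an inhibitor of cyclin-dependent kinases. When p21 holds those kinases down, RB family proteins keep E2F factors and the DREAM complex in a repressive state, and genes of DNA replication and mitosis fall. How fast an induced transcript disappears once its transcription stops depends on how fast the messenger RNA is degraded, and the series title names mRNA decay as its subject.

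Transcript levels are log2 signals, so 1 unit is a 2-fold difference, and differences below are recovery minus p53 on unless another pair is named. Of 14026 genes tested, 539 were called higher after recovery (3.84% of all tested) and 476 lower (3.39%) at a Benjamini-Hochberg adjusted p under 0.05 in limma, with the experiment number as a block. A difference of at least 2-fold was seen in 220 of the higher and 219 of the lower genes. The median called rise was 0.94 and the median called fall -0.97, while the median over all genes tested was 0.02. None of the called genes moved in opposite directions in the 2 experiments. The calls rest on those same differences, so this is no separate check. Of all genes tested, 138 rose and 144 fell by over 1 unit in both experiments. The experiments' differences had a Pearson's r of 0.594 across genes, which are not independent replicates. Both recovery arrays lay on one side of both p53 on arrays for 38.8% of all genes tested, the share against which such separation in a named gene is read. Without the block, 20 genes were called higher (0.143%) and 40 lower (0.285%), and all 60 were also called with it, so most calls below rest on the within-experiment comparison. With the block, leaving out recovery array 1 left 198 higher and 214 lower, recovery array 2 left 194 and 207, and p53 on array 2 left 229 and 292, while without p53 on array 1 the count lower was 276. Calls that held without the block are counted beside the lists, and several of them are named. The lists were chosen with earlier results of these data known, so the shares called on them are no separate check.

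**Figure D1:**
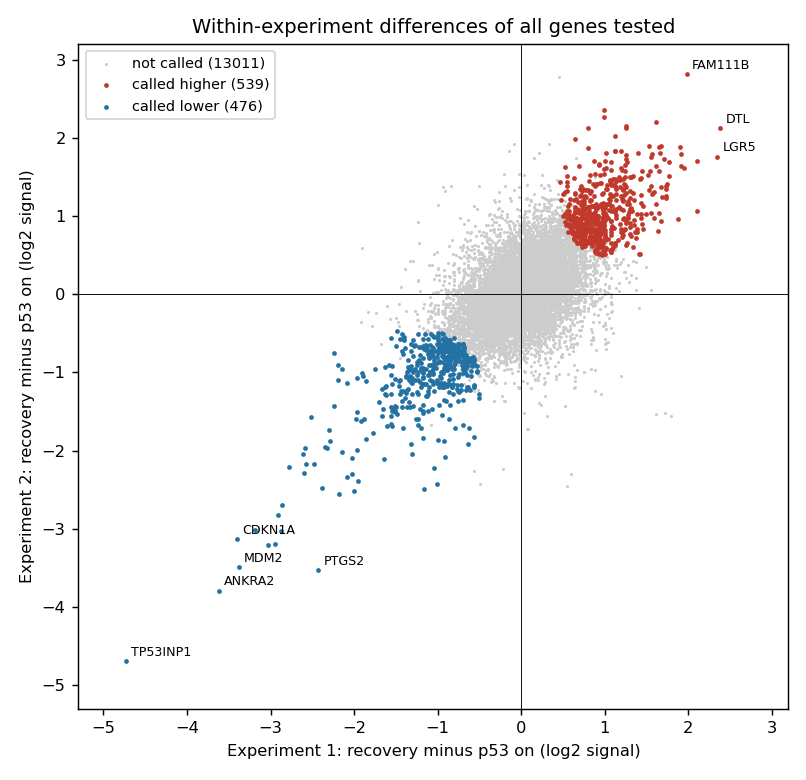
Recovery minus p53 on in experiment 1 (horizontal axis, log2 signal) and in experiment 2 (vertical axis, log2 signal), 1 point per gene tested, with the 539 genes called higher in red and the 476 called lower in blue. The falls reach further than the rises, with TP53INP1 at -4.73 and -4.69 and FAM111B at 1.98 and 2.81.

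Many p53 targets of growth arrest fell. Of 29 genes tested on that list, 17 were called lower and none higher, with a median of -1.02, which was -1.08 in experiment 1 and -0.92 in experiment 2. Of the 17, 7 were also called without the block, namely CDKN1A, GADD45A, BTG2, ZMAT3, PHLDA3, PRDM1 and NINJ1. CDKN1A stood at 8.32 and 7.91 with p53 on and at 4.92 and 4.78 after recovery, a fall of -3.26 ± 0.19 (SE, n = 2 per group, adjusted p = 0.000136), or 9.61-fold. Its control arrays, at 4.83 and 4.99, overlapped the recovery arrays. GADD45A, a stress sensor that binds CDK1 and PCNA, went from 10.02 and 10.13 to 6.99 and 6.93 (-3.12 ± 0.17, adjusted p = 0.000117). Neither gene's groups overlapped.

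SESN1, a sestrin that restrains mTORC1, differed between the experiments in level but not in fall. Its p53 on arrays were 8.18 and 7.09 and its recovery arrays 5.23 and 3.90, so experiment 2 was lower in both states while the within-experiment falls were -2.95 and -3.19 (adjusted p = 0.000477 with the block and 0.075 without it). BTG2, an antiproliferative protein that recruits the CCR4-NOT deadenylase, dropped from 8.42 and 8.16 to 5.56 and 5.47, a fall of -2.78 ± 0.17 (adjusted p = 0.000144). ZMAT3, an RNA-binding p53 target, dropped by -2.50 ± 0.20, SESN2 by -1.74 ± 0.19, and TOB1, a relative of BTG2, by -1.15 ± 0.17. PLK2, a polo-like kinase, read 10.02 and 9.79 and then 9.63 and 9.26 and was not called (adjusted p = 0.145).

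Among p53 targets of apoptosis and autophagy, 13 of 24 tested were called lower and none higher (median -0.91), and 5 of the 13 held without the block. These 5 include TP53INP1, TNFSF10 and FAS. TP53INP1, a stress protein that promotes p53-driven death and autophagy, had the deepest fall of any gene tested. It read 8.32 and 7.54 with p53 on and 3.60 and 2.85 after recovery. The recovery mean lay below the signal of 3.62 that marks the lowest 25% of genes, so the measured -4.71 ± 0.18 (adjusted p = 2.41e-05) is given also as a bound, -4.31 or lower, the difference down to that signal. The death ligand TNFSF10, or TRAIL, went from 6.68 and 6.47 to 3.81 and 3.44, and its receptor TNFRSF10B from 8.03 and 7.54 to 6.46 and 5.88. The death receptor FAS went from 8.26 and 7.86 to 5.35 and 5.04 (-2.86 ± 0.17, adjusted p = 0.000136). None of these genes' groups overlapped.

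Falls of the mitochondrial arm were smaller. BAX, which permeabilises the outer mitochondrial membrane, went from 8.93 and 8.65 to 7.75 and 7.5 (-1.16 ± 0.17, adjusted p = 0.00731), and it was the only 1 of 17 BCL2 family genes tested that was called, though not without the block (adjusted p = 0.106). BBC3, or PUMA, a BH3-only activator of BAX, read 6.75 and 6.57 and then 6.09 and 6.02 (-0.60 ± 0.17, adjusted p = 0.0741). PMAIP1, or NOXA, also BH3-only, differed by -0.09 ± 0.25. BCL2L1, the pro-survival BCL-XL, differed by -0.48 ± 0.17 (adjusted p = 0.134).

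The DNA repair and nucleotide supply targets split. Of 15 tested, 6 were called lower and 3 higher (median -0.42), and 5 of the lower held without the block, against none of the higher. These 5 include RRM2B, POLH, C12orf5 and ANKRA2. RRM2B, the p53-induced subunit of ribonucleotide reductase, fell from 9.23 and 9.15 to 6.63 and 6.86. POLH, the translesion polymerase eta, fell from 8.25 and 8.42 to 6.25 and 5.90, and C12orf5, now TIGAR, a regulator of glycolytic flux, by -2.28 ± 0.20. XPC, which recognises damage for nucleotide excision repair, fell by -1.45 ± 0.24. ANKRA2, an ankyrin repeat gene on the list that is not itself a repair gene, fell from 6.57 and 5.73 to 2.96 and 1.93, which gives -2.53 or lower down to the dim signal of 3.62. The 3 that rose were POLK, another translesion polymerase (1.30 ± 0.23, adjusted p = 0.0139), BRCA1 (1.27 ± 0.20, adjusted p = 0.0102) and FANCC (0.75 ± 0.17, adjusted p = 0.0364). All 3 had been lower with p53 on than in control, by -1.21, -1.43 and -0.76. BRCA1 and FANCC are also counted on the recombination and Fanconi list below. For POLK, 14 of 21 probe sets rose in both experiments, and the probe-set differences had quartiles of 0.01 and 1.12.

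Feedback regulators of p53 gave 6 called lower of 16 and none higher (median -0.59). Of the 6, 3 held without the block, namely MDM2, PRKAB1 and TP53INP1. The lists overlap, since TP53INP1 is also on the apoptosis list, and CCNG1 and PPM1D are on the arrest list. MDM2 read 10.97 and 10.89 with p53 on and 7.60 and 7.40 after recovery, a fall of -3.44 ± 0.17 (adjusted p = 5.41e-05). PRKAB1, a regulatory subunit of the energy sensor AMPK, fell from 9.55 and 9.65 to 6.98 and 7.47. RPS27L fell by -1.48 ± 0.26 and CCNG1, cyclin G1, by -1.23 ± 0.23 (adjusted p = 0.019 with the block and 0.49 without it). For RPS27L the probe-set differences had quartiles of -1.25 and -0.59. PPM1D, the WIP1 phosphatase that shuts p53 signalling off, read 7.85 and 7.24 and then 6.93 and 6.98, and was not called (-0.58 ± 0.28, adjusted p = 0.273).

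**Figure D2:**
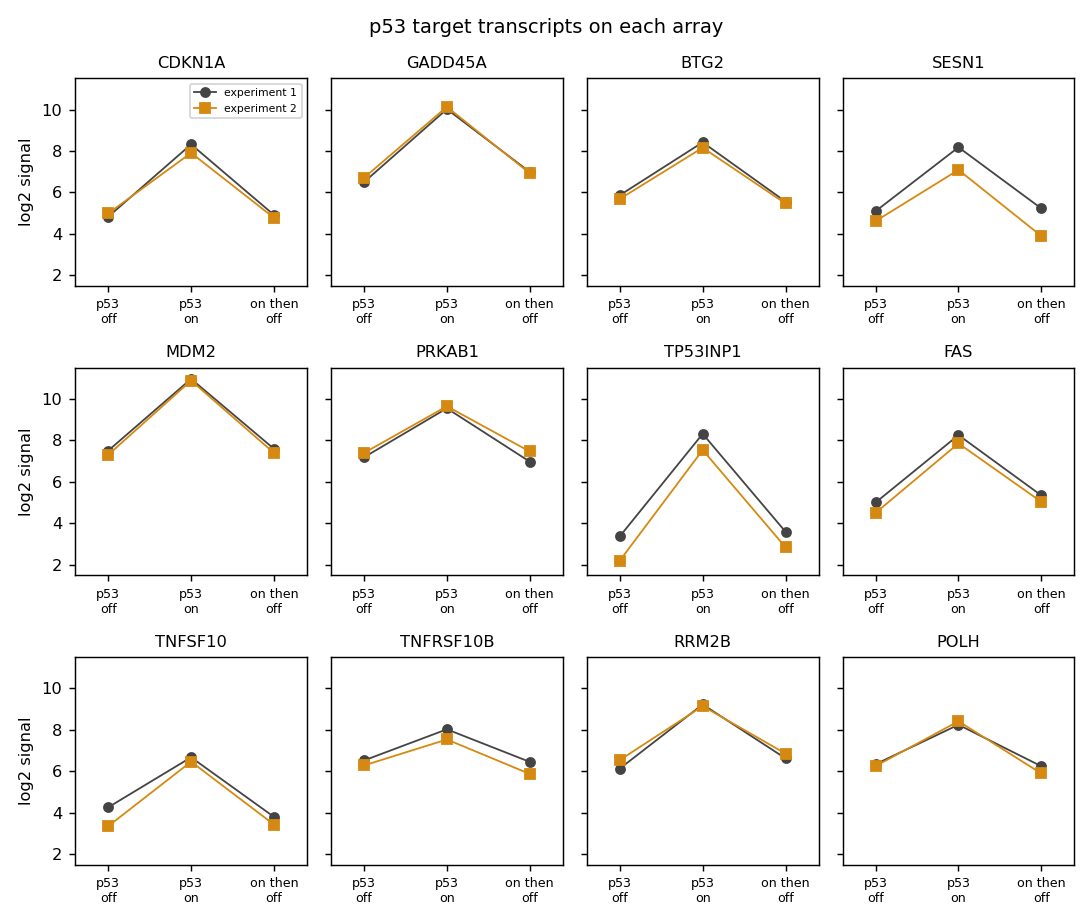
Log2 signal of 12 p53 targets on each of the 6 arrays, with p53 off, p53 on and p53 on then off from left to right and the arrays of an experiment joined by a line (grey circles experiment 1, orange squares experiment 2). In each of the 12 panels both recovery arrays lie below both p53 on arrays, MDM2 falling from 10.97 and 10.89 to 7.60 and 7.40.

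The sizes of these falls can be written as a net rate over the 6 h of recovery. A steady decline would have halved MDM2 every 1.75 h, CDKN1A every 1.84 h, GADD45A every 1.92 h and BTG2 every 2.16 h. BAX would have halved every 5.17 h and CRYAB every 6.85 h. These are net changes between 2 time points, not half-lives, because new transcription during recovery was not measured. They also depend on how far each gene had risen, which was 3.52 over control for MDM2 and 1.35 for BAX. Both ended near control (0.09 and 0.19 above it), while CRYAB stayed at least 5.44 above. The times for MDM2 and BAX therefore do not compare their rates of decline.

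Many genes of DNA replication rose. Origin licensing and firing, the loading and activation of the MCM helicase at replication origins, had 13 of 27 genes called higher and none lower, with a median of 0.74 (0.73 and 0.83 in the experiments). Of these, 3 held without the block, namely DTL, MCM10 and CDC6. DTL, the substrate receptor of the ligase that destroys the licensing factor CDT1, read 6.32 and 6.32 with p53 on and 8.70 and 8.44 after recovery, a rise of 2.25 ± 0.18 (adjusted p = 0.00063). CDC6, which loads the helicase, went from 7.58 and 7.90 to 9.53 and 9.52, and MCM10 from 6.36 and 5.99 to 8.03 and 7.89. Their groups did not overlap. CDC7, the kinase that fires origins, rose by 2.1 in experiment 1 and 1.07 in experiment 2. MCM7, a helicase subunit (0.49 ± 0.17, adjusted p = 0.125), and CDT1 itself (0.76 ± 0.20, adjusted p = 0.0509) were not called.

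Of the replisome and nucleotide synthesis genes, 16 of 38 were called higher and none lower (median 0.69), and CLSPN and UHRF1 held without the block. CLSPN, the checkpoint mediator claspin, rose from 5.25 and 5.25 to 6.83 and 7.04 (1.68 ± 0.17, adjusted p = 0.00197). UHRF1, which directs maintenance DNA methylation, rose from 6.02 and 6.26 to 7.69 and 7.62. DSCC1, a cohesion factor of the clamp loader, rose by 1.77 ± 0.18, and UNG, the uracil glycosylase, by 1.72 ± 0.18. RRM1, the large subunit of ribonucleotide reductase, was not called (-0.49 ± 0.19, adjusted p = 0.183). PCNA, the sliding clamp and also a p53 target, read 8.07 and 8.15 with p53 on and 8.09 and 8.10 after recovery (-0.01 ± 0.17).

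The regulators of entry into S phase had 7 of 27 genes called higher and 2 lower (median 0.46), none of them without the block. SKP2, the ubiquitin ligase subunit that degrades p27, rose from 6.40 and 6.65 to 8.01 and 8.85 (1.90 ± 0.19, adjusted p = 0.00197). CCNE2, a cyclin E, rose by 1.62 and 1.64 in the experiments, although its levels in experiment 2 were lower throughout. RBL1, the RB relative p107, rose by 1.48 ± 0.20, and CCNE1, the other cyclin E, by 1.04 ± 0.17. The 2 that fell were E2F7 (-1.02 ± 0.20, adjusted p = 0.0218), an atypical repressor E2F that is itself a p53 target, and TFDP2 (-0.93 ± 0.22, adjusted p = 0.0414), a dimer partner of E2Fs. E2F1 read 6.63 and 6.53 and then 7.16 and 7.19, a difference that missed the threshold (adjusted p = 0.0828).

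DNA repair genes coupled to replication moved in the same direction. Of 34 genes of homologous recombination, the Fanconi pathway and the S phase checkpoint, 15 were called higher and none lower (median 0.65), and BRCA2 and BLM held without the block. BRCA2, a homologous recombination gene, read 6.08 and 5.92 with p53 on and 7.41 and 7.42 after recovery (1.41 ± 0.18, adjusted p = 0.0047). BLM, a helicase of recombination intermediates, rose by 1.52 in both experiments, FANCB by 1.47 ± 0.22 and CHEK1, the checkpoint kinase, by 1.06 ± 0.19. For FANCB the p53 on mean lay below the dim signal, which leaves a rise of at least 1.17. In mismatch repair 3 of 6 genes tested were called higher and none lower (median 0.66). MSH6, which recognises mismatches, rose from 5.87 and 5.75 to 7.78 and 7.54 (1.85 ± 0.17, adjusted p = 0.00113, and also called without the block), the exonuclease EXO1 by 1.77 ± 0.18 and PMS1 by 0.85 ± 0.18.

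The genes of mitosis had no member called higher. The list's median was -0.10 against 0.02 over all genes. Of 68 tested, none was called higher (3.84% of all genes were) and 2 lower (2.9%, against 3.39%), neither without the block. The 2 were DLGAP5, a spindle protein that read 7.12 and 6.72 and then 6.29 and 6.03 (-0.75 ± 0.17, adjusted p = 0.0352), and CCNB2, cyclin B2, at 8.37 and 7.78 and then 7.65 and 7.13 (-0.69 ± 0.17, adjusted p = 0.0473). The median level of the list was 7.26 in control, 6.65 with p53 on and 6.58 after recovery. Set against control, with the same recovery arrays, 16 of the 68 were called lower after recovery (0.392% of all genes tested were) and none higher, and none of the 16 was called without the block. MKI67, the proliferation marker Ki-67, read 9.54 and 9.27 in control, 8.19 and 8.5 with p53 on and 7.91 and 7.91 after recovery. ASPM, a spindle pole protein, read 7.88 and 7.17, then 6.76 and 6.13, then 6.40 and 5.53. CENPE, a kinetochore motor, had a recovery minus control difference of -1.66 ± 0.17 (adjusted p = 0.00844), and AURKA, a spindle kinase, of -0.82 ± 0.17 (adjusted p = 0.0835).

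Replication-dependent histones, which package newly made DNA, had none called higher either. The list's median was 0.03. Of 41 tested, none was called higher and 2 lower (4.9%, against 3.39% of all genes), neither without the block. The 2 were HIST1H2BC (-0.86 ± 0.20, adjusted p = 0.0403) and HIST1H1E (-0.77 ± 0.17, adjusted p = 0.0343). Median levels were 5.97 in control, 5.07 with p53 on and 5.19 after recovery, and 12 of the 41 were called lower after recovery than in control, none of them without the block. Over all genes the 55 called below control became 7 without control array 1 and 4 without control array 2. The direction of the list's small median is not settled, since it was -0.27 among genes with at least 3 probe sets. Histone genes are near-identical copies, so probe sets can share signal among them.

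**Figure D3:**
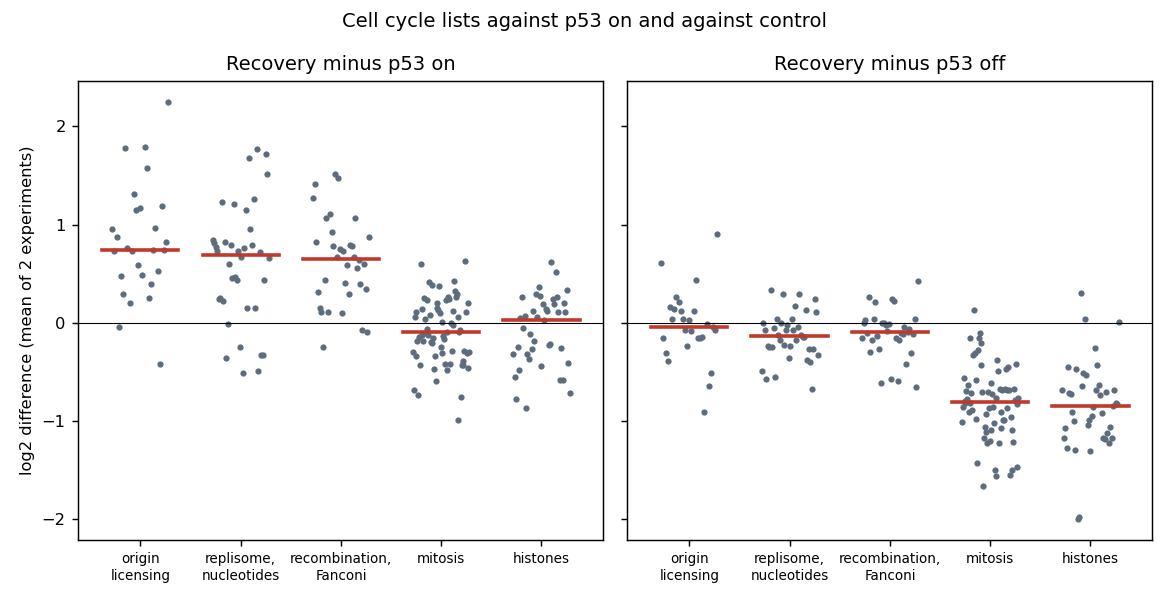
Log2 difference of each gene of 5 cell cycle lists, with recovery minus p53 on at left and recovery minus p53 off at right, 1 point per gene spread sideways for visibility and a red line at the median. The 3 replication and recombination lists lie mostly above 0 at left and near 0 at right, while mitosis and histone genes lie around 0 at left and at medians of -0.81 and -0.85 at right, and the panels share the recovery arrays.

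Promoters of these lists were searched for short sequence motifs. RefSeq windows of GRCh38.p14, from 250 bases before to 50 after a gene's start, were searched on both strands for E2F-type 8-base words (TTTCCCGC, TTTGGCGC, TTTCGCGC or TTTGCCGC) and for the cell cycle homology region, CHR, through which DREAM and B-MYB act (TTTGAA or TTCGAA). Among 10939 protein-coding genes tested that had a window, 562 (5.1%) held an E2F word and 1196 (10.9%) a CHR word. An E2F word was present in 12 of 23 origin licensing promoters (52.2%), 11 of 34 replisome promoters (32.4%) and 2 of 58 mitosis promoters (3.4%). It was also present in 4 of 30 recombination and Fanconi promoters (13.3%), a list with 15 genes called higher, in 11 of 33 histone promoters (33.3%), a list with none called higher, and in 4 of 15 promoters of p53 feedback genes (26.7%), a list with 6 called lower. A CHR word was present in 41 of 58 mitosis promoters (70.7%), 2 of 23 licensing promoters (8.7%), 1 of 34 replisome promoters (2.9%), 4 of 30 recombination promoters (13.3%) and 11 of 33 histone promoters (33.3%). Over all genes called higher, 49 of 449 promoters (10.9%) held an E2F word and 63 (14%) a CHR word, against 11 of 380 (2.9%) and 50 (13.2%) of those called lower. These are counts of letters, not of bound sites. Genes to print were chosen because they hold such a word in the 120 bases before the start, so they do not represent their lists. They are 3 that rose and 3 of mitosis, of which DLGAP5 and CCNB2 were called lower and ASPM was not called. Those 120 bases are printed 5′ to 3′ on the gene's strand, with E2F or CHR words in capitals. They lie at chr1:212035628-212035747 (plus strand, DTL), chr19:4909381-4909500 (plus, UHRF1), chr20:37095998-37096117 (minus, RBL1), chr14:55191586-55191705 (minus, DLGAP5), chr15:59105026-59105145 (plus, CCNB2) and chr1:197146670-197146789 (minus, ASPM).
DTL: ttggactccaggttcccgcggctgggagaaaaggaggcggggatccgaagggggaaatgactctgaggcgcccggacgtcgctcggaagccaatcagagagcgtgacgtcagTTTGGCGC
UHRF1: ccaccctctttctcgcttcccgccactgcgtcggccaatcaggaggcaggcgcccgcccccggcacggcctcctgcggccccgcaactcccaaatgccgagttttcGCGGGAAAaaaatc
RBL1: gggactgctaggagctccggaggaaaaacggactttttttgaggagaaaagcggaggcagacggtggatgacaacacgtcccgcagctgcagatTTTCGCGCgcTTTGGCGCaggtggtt
DLGAP5: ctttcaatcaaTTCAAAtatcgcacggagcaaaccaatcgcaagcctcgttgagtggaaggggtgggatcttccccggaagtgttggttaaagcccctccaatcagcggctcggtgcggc
CCNB2: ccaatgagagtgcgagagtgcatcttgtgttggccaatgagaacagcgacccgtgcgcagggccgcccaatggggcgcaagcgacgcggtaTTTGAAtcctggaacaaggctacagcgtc
ASPM: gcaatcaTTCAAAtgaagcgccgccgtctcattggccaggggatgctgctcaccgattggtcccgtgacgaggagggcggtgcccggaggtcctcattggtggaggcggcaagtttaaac

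Chaperones help proteins fold, and many are induced by heat. Whether the temperature step of recovery moved them was not tested. Of 47 HSP70, HSP90 and co-chaperone genes tested, 9 were called higher and 2 lower (median 0.18), none without the block. The largest rise was in PPID, cyclophilin 40, an HSP90 co-chaperone, whose p53 on arrays differed widely at 6.19 and 3.86 before 6.99 and 5.97 after recovery, so that its groups overlapped (1.46 ± 0.33, adjusted p = 0.0345). CHORDC1, another HSP90 partner, rose evenly from 7.14 and 6.34 to 8.43 and 7.84 (1.40 ± 0.17, adjusted p = 0.00434). HSPH1, the HSP110 nucleotide exchange factor, rose from 9.60 and 9.06 to 10.83 and 10.33, FKBP4 by 1.14 ± 0.17 and HSP90AA1, the inducible HSP90, by 0.80 ± 0.18. Recovery arrays of HSPH1 ended near its control arrays of 11 and 10.33. The constitutive HSP90AB1 differed by -0.03 ± 0.18 and HSPA8 by 0.61 ± 0.21 (adjusted p = 0.127). Over the main and alternative fits, DNAJB1 differed by -0.02 to 0.27 and BAG3 by -0.07 to 0.15, and neither was called. HSPA1B was called higher, with differences of 0.6 to 1.18 over those fits. The 2 called lower were HSPA4L (-0.80 ± 0.18, adjusted p = 0.0329) and CRYAB.

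A heat shock element, taken as GAA, TTC and GAA, or TTC, GAA and TTC, with any 2 bases between the words, was found in 33 of the 10939 promoter windows (0.3%) and in 4 of 42 chaperone windows, those of HSPA8, DNAJA1, DNAJB6 and CHORDC1. The CHORDC1 stretch at chr11:90223050-90223169 (minus strand) is shown because overlapping copies of the element, in capitals, fall together there in a gene that rose.
CHORDC1: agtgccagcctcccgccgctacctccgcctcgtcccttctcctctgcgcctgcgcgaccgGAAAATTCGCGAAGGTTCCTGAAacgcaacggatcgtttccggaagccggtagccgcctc

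Of the 3 cold-inducible genes tested, 1 was called. CIRBP, an RNA-binding protein induced by mild cold, fell from 8.86 and 8.37 to 7.69 and 7.72 (-0.92 ± 0.19, adjusted p = 0.0258, and 0.167 without the block), with control arrays at 7.59 and 7.45. Its relative RBM3 read 7.91 and 6.99 and then 7.43 and 6.72, and was not called (adjusted p = 0.241). Among 16 circadian clock genes 2 were called higher and 1 lower, none without the block. PER3 rose by 0.99 ± 0.20 (adjusted p = 0.0257), CLOCK by 0.71 ± 0.17 (adjusted p = 0.0428), and PER1 fell by -0.89 ± 0.21 (adjusted p = 0.0404).

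Genes of ERK feedback moved in both directions. Of 27 genes of ERK feedback and EGFR ligands, 4 were called higher and 2 lower (median 0.07), none without the block. DUSP6, the phosphatase that switches ERK off, read 6.92 and 6.41 with p53 on and 8.09 and 7.90 after recovery (1.33 ± 0.18, adjusted p = 0.00577). SPRY4, a Sprouty inhibitor of receptor signalling, went from 5.07 and 5.33 to 6.66 and 6.64, and ERRFI1, an EGFR inhibitor, rose by 1.05 ± 0.17. Both groups of each gene were separate. DUSP14, another dual-specificity phosphatase, fell from 7.89 and 8.20 to 7.09 and 7.24 (-0.88 ± 0.17, adjusted p = 0.0196). The EGFR ligands parted, EREG rising by 0.89 ± 0.20 (adjusted p = 0.0345) and HBEGF falling by -1.06 ± 0.19 (adjusted p = 0.0143).

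Of 25 NF-kB feedback genes and chemokines, 1 was called higher and 2 lower. PTGS2, the inducible cyclooxygenase COX-2, fell from 7.61 and 8.53 to 5.18 and 5.00 (-2.98 ± 0.25, adjusted p = 0.000667) and was the member also called without the block. Its recovery arrays were below its control arrays of 5.79 and 6.14, though recovery minus control was not called (-0.87 ± 0.25, adjusted p = 0.2). TNFAIP3, the A20 deubiquitinase that restrains NF-kB, rose by 0.95 ± 0.17 (adjusted p = 0.015). Only 3 of its 9 probe sets rose in both experiments, and the probe-set differences had quartiles of 0.14 and 0.54. TNIP1, the partner of TNFAIP3, fell by -0.76 ± 0.18 (adjusted p = 0.0381). Of 30 immediate-early transcription factor genes, 1 was called higher and 3 lower, BTG2 being one of the 3 and called without the block too. ID2, an inhibitor of differentiation, rose by 1.46 ± 0.20 (adjusted p = 0.00608), JUND fell by -1.07 ± 0.17 and ATF3 by -0.98 ± 0.24. For JUND, 2 of 3 probe sets fell in both experiments, and the probe-set differences had quartiles of -0.87 and -0.3. FOS differed by 0.18 ± 0.34 and EGR1 by 0.04 ± 0.20, neither called.

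Genes of mRNA decay were called lower at about the share of all genes. Of 57 genes of deadenylation, decapping, the exosome and nonsense-mediated decay, 2 were called lower and none higher (median -0.07). That is 3.5%, against 3.39% of all genes called lower. Both, BTG2 and TOB1, are adaptors of the CCR4-NOT deadenylase that also sit on the p53 target list. Without the block BTG2 was called and TOB1 was not (adjusted p = 0.291). CNOT1, the scaffold of that complex, read 9.65 and 9.74 and then 9.44 and 9.45 (-0.25 ± 0.17), and the decapping helicase DDX6 differed by -0.10 ± 0.17. Of 21 genes for proteins that bind AU-rich elements, ZFP36L2, which promotes decay of its targets, was called lower (-0.76 ± 0.17, adjusted p = 0.0361, and not without the block), and none was called higher.

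Nutrient and stress pathways held calls in both directions. Among 38 glycolysis and hypoxia genes 4 were called lower and 2 higher (median -0.19), none without the block, and 23 lay below 0 in both experiments and 9 above, against 4330 and 4794 of all 14026 genes. DDIT4, or REDD1, a brake on mTORC1, read 8.29 and 7.70 and then 6.34 and 5.31 (-2.17 ± 0.26, adjusted p = 0.00407), and TXNIP, which limits glucose uptake, 10.53 and 10.48 and then 9.44 and 9.38. ENO2, a neuronal-type enolase, rose by 1.09 ± 0.23, while ENO1 and GAPDH differed by -0.07 ± 0.18 and -0.03 ± 0.19. Of 35 genes of the ATF4 response, SESN2, NUPR1 and ATF3 were called lower and AARS, an alanyl-tRNA synthetase, higher (0.93 ± 0.17, adjusted p = 0.0177). In ER folding 1 of 31 was called in each direction, DNAJB9 higher (0.91 ± 0.22, adjusted p = 0.0436) and EDEM1 lower (-0.76 ± 0.18, adjusted p = 0.0428). In cholesterol and fatty acid synthesis, of 28 tested, FDFT1, squalene synthase, fell by -1.07 ± 0.18, STARD4, a sterol carrier, by -1.02 ± 0.24, and ELOVL6, a fatty acid elongase, rose by 1.32 ± 0.29. SESN1 and SESN2 were the only 2 of 32 NRF2 and redox genes called, and they are p53 targets as well. None of the calls on these 4 last lists held without the block.

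Intestinal genes included LGR5, the marker of crypt stem cells and receptor for R-spondins. LGR5 read 8.61 and 8.62 in control, 5.26 and 5.83 with p53 on and 7.61 and 7.59 after recovery, a rise of 2.06 ± 0.20 over p53 on (adjusted p = 0.00173, and 0.027 without the block). Recovery minus control was -1.01 ± 0.20 (adjusted p = 0.075). Of 18 Wnt and stem genes tested it was called with MYB (1.23 ± 0.23, adjusted p = 0.0183) and AXIN2, a Wnt target (0.81 ± 0.17, adjusted p = 0.0253), and none was called lower (median 0.14). MYB and AXIN2 were not called without the block. LGR5, MYB and AXIN2 had been lower with p53 on than in control, by -3.07, -1.66 and -0.84.

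Of 22 goblet and secretory genes, SPDEF, a goblet cell transcription factor, was called higher (5.97 and 6.32, then 7.18 and 7.54), and the mucins MUC13 (-1.23 ± 0.21, adjusted p = 0.0126) and MUC2 (-0.91 ± 0.18, adjusted p = 0.0217) lower. Of 23 absorptive enterocyte genes, 1 was called in each direction (median -0.07). CEACAM1, an adhesion molecule, fell by -0.77 ± 0.17 (adjusted p = 0.0346). FABP1, an enterocyte fatty acid binding protein, rose from 3.36 and 3.37, below the dim signal, to 4.82 and 4.49, which is at least 1.04. Among 22 tight junction and keratin genes CLDN2, a pore-forming claudin, rose from 7.81 and 7.71 to 8.87 and 8.92, while CLDN4, a sealing claudin, fell from 9.58 and 9.02 to 8.73 and 8.25. KRT7, KRT23 and TJP3 were also called lower, by -0.78, -0.74 and -0.71. None of the calls in the goblet, enterocyte and junction lists held without the block. GDF15, a TGF-beta family cytokine induced by p53, fell from 9.68 and 9.97 to 6.50 and 6.97 (-3.10 ± 0.19, adjusted p = 0.000144, and also called without the block).

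**Figure D4:**
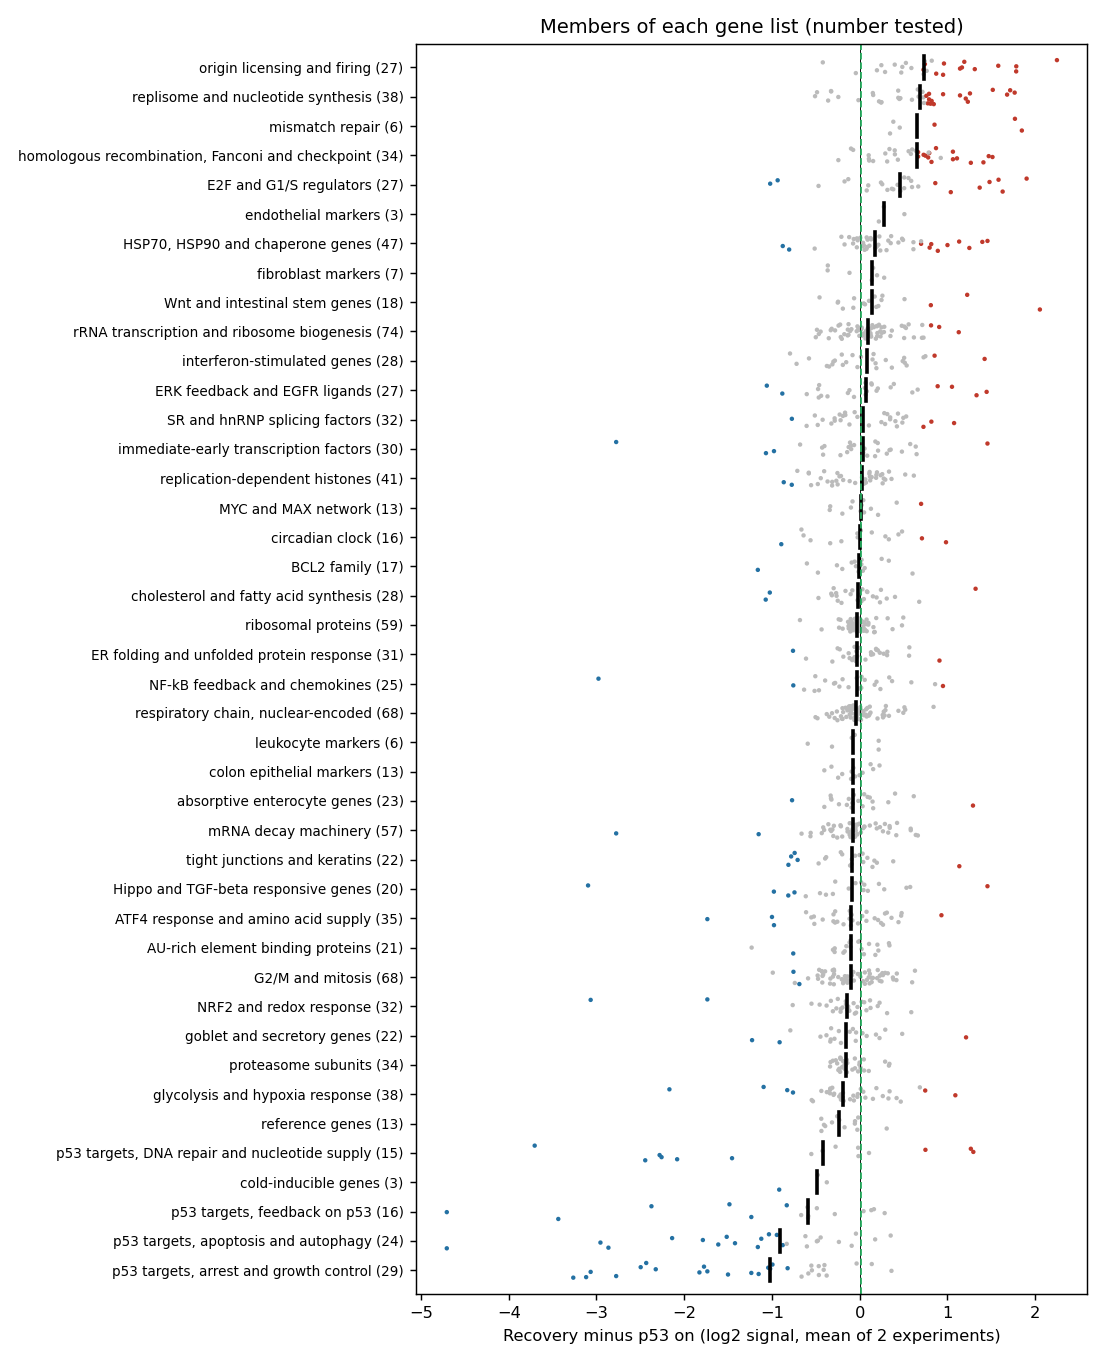
Recovery minus p53 on (log2 signal, mean of the 2 experiments) for each tested gene of each list, ordered by list median, with genes called higher in red, lower in blue and others in grey, spread vertically for visibility. Black bars mark list medians and the dashed line the median of all genes tested, 0.02. Lists run from a median of -1.02 for p53 targets of arrest to 0.74 for origin licensing.

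Calls on the growth lists are read against 3.84% of all genes called higher and 3.39% lower. No gene was called among 59 ribosomal proteins (median -0.03), 34 proteasome subunits (-0.16) or 68 nuclear-encoded respiratory chain genes (-0.04). Ribosome biogenesis had 3 of 74 called higher (4.1%, near the share of all genes) and none lower. UTP20, a processome scaffold, led at 1.13 ± 0.20 (adjusted p = 0.0151). MYC read 10.39 and 10.47 and then 10.38 and 10.90 (0.21 ± 0.18, not called), and in its network of 13 genes only MGA was called (0.70 ± 0.17, adjusted p = 0.0469). Of 32 splicing factors, 3 were called higher and 1 lower. They were FUSIP1, now SRSF10 (1.08 ± 0.22), TRA2B (0.82 ± 0.18), SFRS1, now SRSF1 (0.73 ± 0.17), and HNRNPC (-0.77 ± 0.17). The probe-set differences had quartiles of 0.47 and 1.0 for FUSIP1 and -0.47 and -0.25 for HNRNPC, short of the gene differences. Of 28 interferon-stimulated genes, USP18 (1.43 ± 0.19, adjusted p = 0.00608) and TRIM21 (0.85 ± 0.18, adjusted p = 0.0255) were called higher. They make 7.1% of that list, against 7.2% of all genes called in either direction. Of 20 Hippo and TGF-beta responsive genes, GDF15, AXL, CYR61 and LATS2 were called lower and ID2 higher. GDF15 apart, none of these calls held without the block.

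The epithelial keratins KRT8 and KRT18 read between 11.42 and 12.64 on all 6 arrays. Not every marker followed the labelled cell type. The colon marker CDX2 read only between 3.83 and 4.62, and LYZ, listed as a leukocyte marker, between 10.81 and 11.52. No gene was called among 13 colon epithelial markers (median -0.07), nor among the 7 of 12 fibroblast, 6 of 12 leukocyte and 3 of 8 endothelial markers that passed the dim filter. The 13 reference genes tested had a median of -0.23 and none was called. Array medians ran from 5.24 to 5.31.

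Some transcripts that stood high with p53 on were still well above control after 6 h. The genes given here and those grouped with ABCA12, CRYAB apart, were chosen after their values were seen. CRYAB, alpha-B crystallin, a small heat shock protein, read 2.55 and 2.51 in control, 10.16 and 9.71 with p53 on and 9.09 and 9.03 after recovery. Its fall of -0.88 ± 0.18 (adjusted p = 0.0277) left it at least 5.44 above control, taking the dim signal of 3.62 as the control's upper bound. PLTP, phospholipid transfer protein, read 5.02 and 4.74, then 9.43 and 8.89, then 8.80 and 8.58. Its difference of -0.47 ± 0.18 was not called (adjusted p = 0.154), and recovery minus control was 3.81 ± 0.18 (adjusted p = 5.05e-05). TP53I3, a quinone oxidoreductase and p53 target, read 8.47 and 8.29 and then 8.02 and 7.66, and SCGB1A1, a secretoglobin, 7.61 and 7.58 and then 6.92 and 7.15. Neither was called against p53 on, and both were called above control, by 1.64 ± 0.18 and 2.26 ± 0.17.

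ABCA12, CES2 and TRIM29 fell and were still above control. ABCA12, a lipid transporter of epithelia, read 7.52 and 6.66 and then 5.22 and 4.79 (-2.08 ± 0.21, adjusted p = 0.00197), against control arrays of 2.73 and 2.67, so that it remained at least 1.38 above control. CES2, an intestinal carboxylesterase, fell by -1.65 ± 0.17 and was 1.37 ± 0.17 above control, and TRIM29 fell by -1.54 ± 0.18 and was 1.58 ± 0.18 above control. SERPINB7, a clade B serpin, did not fall in either experiment. It read 3.43 and 4.23 in control, 5.45 and 5.73 with p53 on and 5.84 and 6.15 after recovery, and the difference from p53 on was not called (0.41 ± 0.19, adjusted p = 0.258). Over all genes 29 were called above control after recovery (0.207%) and 55 below (0.392%), 4 and none without the block.

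**Figure D5:**
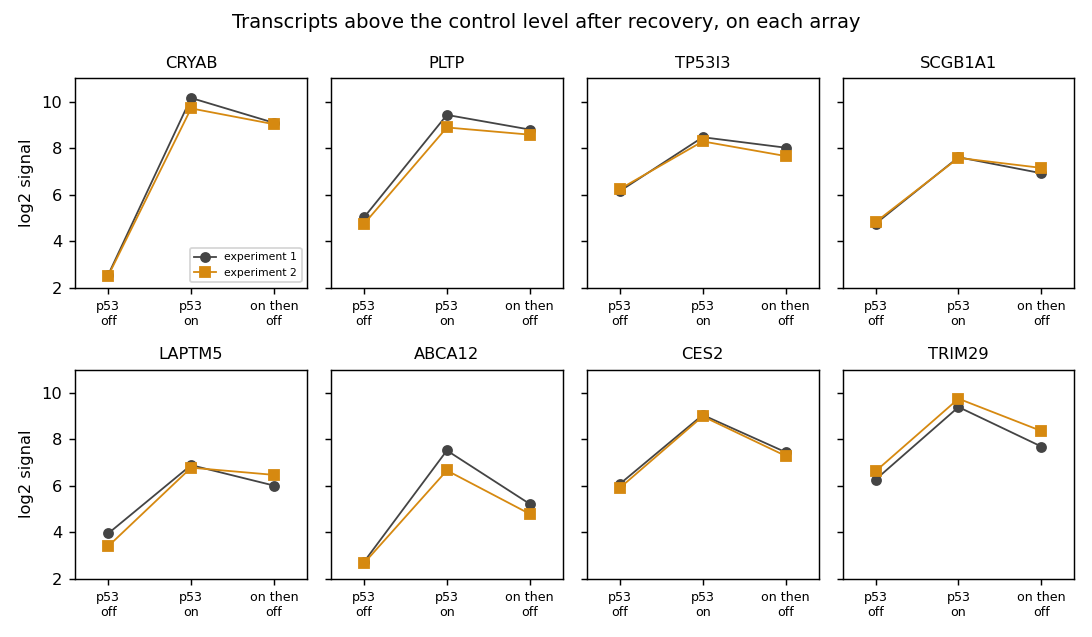
Log2 signal of 8 transcripts on each of the 6 arrays, with p53 off, p53 on and p53 on then off from left to right and the arrays of an experiment joined (grey circles experiment 1, orange squares experiment 2). After recovery all 8 lie above both of their control arrays, CRYAB at 9.09 and 9.03 against 2.55 and 2.51.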

How the data were processed

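The authors deposited values that were taken as log2 signals from their range, with 1 value per probe set and array (Affymetrix Human Gene 1.0 ST, labelled from 100 ng of total RNA per the labels). How they were background-corrected and normalized is not given in the sources used here. No further scaling was applied.

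Of 257430 probe sets, 224320 carried 1 gene symbol. A gene's value was their median on each array, so its difference can lie outside the quartiles of its probe sets' differences. The lowest 25% of genes by mean signal, those under 3.62, were not tested, and a level under 3.62 served as a bound. All 6 arrays were fitted with limma 3.58.1 in R 4.3.3, with group and experiment number as terms, and p-values were adjusted over 14026 genes by the Benjamini-Hochberg method. Errors are standard errors. The numbers pair the samples: the labels' descriptions give each array an experiment number, and same-numbered arrays deviated together from their group means (correlations across genes of 0.496, 0.551 and 0.63). The labels do not name separate cultures, so p-values measure only the spread between these samples, which may be technical. At this group size no exact permutation test for 1 gene can reach 0.05.

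In 20 simulations with 200 changed genes, 51.8% of the changes of 1 log2 unit were recovered and 99.2% of those of 2, and 6.01% of calls were false. Without the block these shares were 0.1%, 60.2% and 0.08%. The simulated noise was independent, had the spread of the blocked fit, and had the measured experiment difference of each gene added to it. The block was therefore right by construction, and the simulations cannot tell which fit suits the real arrays.

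Members and gene lists were chosen with earlier results of these data known. Named genes were the 12 largest rises and falls with at least 3 probe sets, up to 4 called members per list in each direction, the member with the smallest p of a list without calls, the 2 members per list with the highest mean signal, and the 3 genes with the largest disagreement between experiments. Other named genes were chosen after their values were seen. The p53 gene was not analysed here. The number of arrays limits the precision.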

Additional observations from a re-analysis of the deposited data

How the results depend on the processing

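Against p53 on, 539 genes were called higher and 476 lower with the replicate block. No replicate block gave 20 and 40. The 4 compared arrays alone gave 675 and 584 with the block and, added after seeing the data, none in either direction without it (1536 genes at an unadjusted p under 0.05 in limma). The mean of probe sets gave 1116 and 849, no filter on dim genes 205 and 206, and an intensity trend in the spread 834 and 719. Leaving out each array in turn gave 194 to 675 higher and 207 to 584 lower. The low ends came without recovery array 2 (194 and 207) and recovery array 1 (198 and 214), followed by p53 on array 2 (229 and 292), and the count lower was 276 without p53 on array 1. In these fits the lone array of a group is assumed to vary like the others. Against control, the 29 genes called higher and 55 lower became 4 and 0 without the block (no replicate block), 121 and 206 with the mean of probe sets, 10 and 1 without the dim filter, 85 and 169 with the lowest 50% left out, 15 and 17 after quantile normalization, 79 and 162 with the trend, and 89 lower after median centring. Leaving out each array gave 13 to 94 higher and 4 to 152 lower. The 137 called genes checked here were named by the rule or picked after their values were seen. None of them reversed under any alternative. Of the 137, 28 were called without the block and 85 in each of the 8 other planned settings that tested them, array omissions aside. No list median of 0.2 or more in size changed sign. Dim genes have signals close to background, so their falls are bounds.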

Other observations

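Of the 1015 called genes, 168 were on a list and 847 were not. Outside the lists, and chosen as the largest changes, FAM111B, a protease-like gene, rose from 5.88 and 5.16 to 7.86 and 7.96, ADRA2A, the alpha-2A adrenergic receptor, from 4.82 and 5.18 to 6.93 and 6.88, WDR76 from 5.72 and 4.90 to 7.62 and 6.78, and HTR1D, a serotonin receptor, from 4.50 and 4.49 to 6.17 and 6.30. FAM111B, ADRA2A and HTR1D were also called without the block. The falls outside the lists, picked after their values were seen, included FBXW7, the substrate receptor that degrades cyclin E and MYC (-1.47 ± 0.21, adjusted p = 0.00708), the receptor NOTCH1 (-1.19 ± 0.18, adjusted p = 0.00794) and RCAN1, a calcineurin inhibitor (-1.61 ± 0.22, adjusted p = 0.00617).

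A few genes rose in recovery from p53 on levels that were close to control, and were picked after their values were seen. CYP1B1, a cytochrome P450 regulated by the aryl hydrocarbon receptor, read 4.70 and 6.78 in control, 5.26 and 7.02 with p53 on and 6.59 and 8.08 after recovery. Its 2 experiments lay far apart, so the groups overlap, yet it rose by 1.33 and 1.06 within them (1.20 ± 0.19, adjusted p = 0.0106 with the block and 0.68 without it). WNT11 rose by 0.74 ± 0.17 and was 1.07 ± 0.17 above control. The 3 genes with the largest disagreement between experiments all read between 2.3 and 5.05 and none was called.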
